A study of Homo sapiens with 4 samples.

Results

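The 8 genes described here encode liver-enriched transcription factors: the forkhead proteins FOXA1, FOXA2 and FOXA3, the CCAAT/enhancer binding proteins CEBPA and CEBPB, the cut-homeodomain protein ONECUT1, the prospero homeobox protein PROX1 and the zinc finger protein GATA4. They were taken by symbol from the platform annotation of the array. All 8 were measured, each by 1 probe that lists no other gene, out of 18417 genes in all. Between cells with shRNA against MKL1 and MKL2 and cells with a control shRNA, 0 of the 8 transcripts passed an adjusted p of 0.05 in limma, and 1, FOXA1, had an unadjusted p under 0.05. Over all genes the shares were 0.174% and 14.3%, so 1 of 8 is close to the share of all genes. Their log2 differences, knockdown minus control, ran from -0.26 for FOXA1 to 0.06 for GATA4.

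HuH7, a human hepatocellular carcinoma cell line used below passage 10 and grown in 10% serum, was infected with lentivirus made from the pLKO.1 plasmid in HEK293T cells. One group of 2 arrays carried a control shRNA and the other group of 2 arrays carried shRNA directed against MKL1 and MKL2, now named MRTFA and MRTFB. Both groups had 7 days of puromycin selection. The question was which transcripts change when MKL1 and MKL2 are depleted, coactivators that actin dynamics release to act through serum response factor (SRF). The cells are puromycin-selected populations of a single tumour line. The labels call the samples biological replicates without saying whether they came from separate infections, so the p-values may measure only the spread between these samples.

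Hepatocyte identity rests on a network of such factors, which bind one another's genes and the same enhancers of hepatocyte genes. FOXA proteins are pioneer factors that open chromatin at liver enhancers. CEBPA maintains metabolic genes of the resting hepatocyte, while CEBPB responds to inflammatory cytokines and drives the acute phase response. ONECUT1, also called hepatocyte nuclear factor 6, acts in hepatic and biliary development, PROX1 in hepatoblast migration and as a corepressor of bile acid synthesis, and GATA4 in the formation of the liver bud.

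Expression values were log2 signals per probe, and the median over all 33297 probes lay between 5.68 and 5.73 on the 4 arrays. Of 13 measured hepatocyte markers, 12 lay above the upper quartile of all probes (7.44 to 7.48) on every array, among them ALB, AFP, TTR and APOA1. No fibroblast or endothelial marker did so, whereas the biliary markers EPCAM, KRT19 and SOX9 and the blood cell markers CD68 and LYZ did. The fibroblast marker LUM fell short only in knockdown replicate 1. It read 8.05 and 8.01 in controls and 7.13 and 8.60 in knockdown arrays. As a check of the labels, the MRTFA transcript averaged 7.79 ± 0.023 with control shRNA and 6.86 ± 0.066 with knockdown (SD, n = 2 each; limma adjusted p = 0.0404), from a probe whose annotation also names RBM15. The second target, MRTFB, averaged 7.21 ± 0.013 and 6.98 ± 0.191 (SD, n = 2 each), which did not pass the test (limma adjusted p = 0.448). Of all 18417 genes, 32 were called (0.174%), of which 17 were lower (0.0923%) and 15 higher (0.0814%). An exact permutation test of 2 against 2 arrays cannot give a two-sided p below 0.333, so calls rest on limma, which moderates each gene's variance with that of all genes.

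RefSeq promoter windows were used for 5 of the 8 factors (FOXA1, FOXA3, CEBPA, CEBPB with 2 start sites, and ONECUT1). They are described beside that of SRF, the partner through which the coactivators targeted by the shRNA act. A window holds 250 bases before and 50 after a start site. In none of the 6 windows was there a CArG box, the SRF binding sequence, which 1.29% of 35116 windows of the same length hold. With so low a share, 0 of 6 windows does not set these genes apart from others. Other short motifs were searched on both strands, and each had 0 matches in the 6 windows. Only the forms written here were searched, so variants of these sites were not counted and may be present. The TEAD motif GGAATG was found in 14% of all windows. The forkhead motif TGTTTAC was found in 3.42% of them. The C/EBP motif TTGCNNAA was found in 10.5% of all windows. The ONECUT motif ATNGAT was found in 17% of all windows. The GATA motif AGATAA occurred in 10.3% of all windows. The search was limited to these windows, and enhancers farther away were not examined. Whether the GC content of the windows, given next, bears on the absence of matches was not tested. The promoters shared a high GC content, from 69.3% in FOXA1 to 80.7% in CEBPA, against a median of 58.7% over all windows, of which 22% reached the GC content of the FOXA1 window. They held 31 to 50 CpG dinucleotides, against a median of 14. The 250 bases before the start are printed 5′ to 3′ on the gene's strand (GRCh38.p14), for FOXA1 (chr14:37595250-37595499, minus strand) and CEBPA (chr19:33302535-33302784, minus strand) with CpG dinucleotides in capitals, and for SRF (chr6:43171019-43171268, plus strand) with its 2 CArG boxes in capitals.
FOXA1: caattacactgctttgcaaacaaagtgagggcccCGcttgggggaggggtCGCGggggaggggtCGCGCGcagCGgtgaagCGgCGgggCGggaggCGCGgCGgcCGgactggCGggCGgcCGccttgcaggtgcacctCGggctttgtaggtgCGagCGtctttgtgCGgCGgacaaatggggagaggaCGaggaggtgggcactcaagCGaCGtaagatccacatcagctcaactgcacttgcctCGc
CEBPA: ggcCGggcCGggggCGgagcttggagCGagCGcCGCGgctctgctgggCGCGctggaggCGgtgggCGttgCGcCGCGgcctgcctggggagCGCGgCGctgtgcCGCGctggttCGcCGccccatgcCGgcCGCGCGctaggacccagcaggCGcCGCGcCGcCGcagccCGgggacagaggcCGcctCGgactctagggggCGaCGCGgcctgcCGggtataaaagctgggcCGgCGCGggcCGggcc
SRF: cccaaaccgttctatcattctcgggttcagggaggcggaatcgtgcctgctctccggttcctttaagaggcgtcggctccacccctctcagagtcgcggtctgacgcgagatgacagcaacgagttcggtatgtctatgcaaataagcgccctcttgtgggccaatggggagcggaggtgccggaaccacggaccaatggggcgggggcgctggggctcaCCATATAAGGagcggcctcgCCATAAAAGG
The CArG boxes of SRF begin 30 and 10 bases before its start site. SRF, chosen for comparison with its values known, read 9.80 and 9.97 in the control arrays and 9.37 and 9.52 in the knockdown arrays, differing by -0.44 log2 units (SE 0.113, limma adjusted p = 0.188). Its knockdown values lay below its control values, as did those of 23% of all genes. Among the factors with a window, FOXA1, FOXA3 and CEBPA, without a CArG box, also lay below, while CEBPB and ONECUT1 overlapped. Whether SRF acts on any of these genes was not tested.

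Among the FOXA genes, the FOXA1 transcript showed the largest difference of the 8 factors. FOXA1 (probe 7978706) read 9.72 and 9.74 in the control arrays and 9.43 and 9.50 in the knockdown arrays. Both knockdown values lay below both control values, and the gap between replicates was 0.023 among controls and 0.069 among knockdown arrays in size. The knockdown mean was 0.834 of the control level, with a log2 difference of -0.26 (SE 0.094, 95% interval -0.49 to -0.03). This was the 1 interval of the 8 that did not include 0, and the difference did not survive adjustment over all genes (unadjusted p = 0.0308, limma adjusted p = 0.294). With the replicate number added to the fit as a block, the FOXA1 interval ran from -0.54 to 0.016 and included 0. An unadjusted p under 0.05 was reached by 1 of the 8 factors and by 14.3% of all genes. In absolute size the FOXA1 difference lay at percentile 82.3 of all genes.

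FOXA3, whose product shares the forkhead DNA-binding domain and acts mainly in the adult liver, read 7.78 and 7.545 in controls (probe 8029754). Its knockdown values were 7.44 and 7.536, the higher of which lay 0.0086 below the lower control. The groups therefore did not overlap, but the control replicates differed by 0.236, more than the group means did. The log2 difference was -0.18 (SE 0.117, 95% interval -0.46 to 0.11, limma adjusted p = 0.561), and it was -0.06 without control replicate 1 and -0.29 without control replicate 2.

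FOXA2, which is needed with FOXA1 for the onset of liver development, read 8.93 and 8.53 in controls (probe 8065344). In the knockdown arrays it read 8.59 and 8.73, both inside the range of the controls. The gap of 0.398 between the control arrays was the largest replicate gap among the 8 factors. The log2 difference was -0.07 (SE 0.152, 95% interval -0.44 to 0.30, limma adjusted p = 0.886), and its sign turned to 0.13 without control replicate 1.

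**Figure D1:**
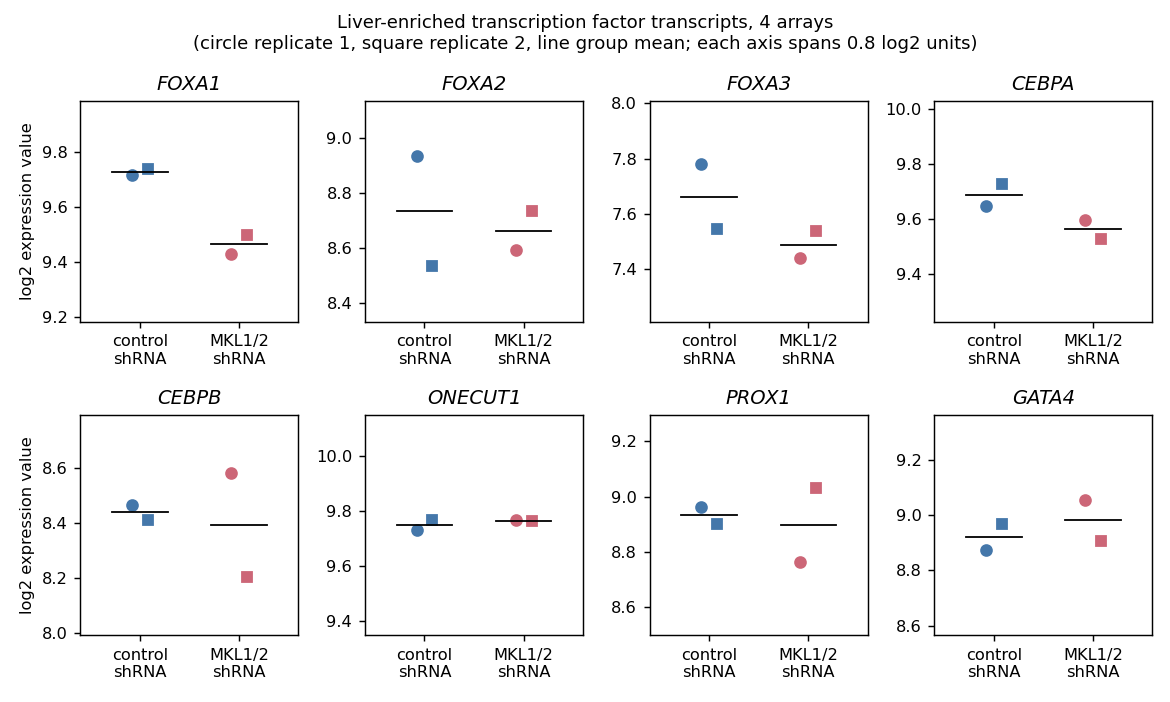
Log2 expression values of the 8 factors in each of the 4 arrays, with control shRNA in blue and MKL1/2 shRNA in red, circles for replicate 1, squares for replicate 2 and a line for each group mean; every vertical axis spans 0.8 log2 units. The groups are separate for FOXA1, narrowly for CEBPA and FOXA3, and overlap for the other 5 genes.

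The C/EBP genes differed in how well the replicates matched. CEBPA (probe 8036004) read 9.65 and 9.73 in controls and 9.60 and 9.53 in knockdown cells. Its groups did not overlap, with 0.050 between the nearest values, and its log2 difference was -0.12 (SE 0.097, 95% interval -0.36 to 0.11, limma adjusted p = 0.623). The knockdown level was 0.917 of control, with interval bounds of 0.779 and 1.08.

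CEBPB (probe 8063386) read 8.47 and 8.41 in controls, but 8.58 in knockdown replicate 1 and 8.21 in knockdown replicate 2. The knockdown arrays lay on either side of both controls, 0.14 above and 0.23 below the control mean. The difference of the means was -0.05 (SE 0.142, 95% interval -0.39 to 0.30, limma adjusted p = 0.925), and its sign turned to 0.14 without knockdown replicate 2. The gap of 0.375 between the knockdown arrays was larger than the difference between the group means.

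ONECUT1 was the steadiest of the 8. Its 4 values (probe 7988987) were 9.73 and 9.77 in controls and 9.77 and 9.76 in knockdown cells, with the knockdown values inside the control range. The log2 difference was 0.02 (SE 0.092, 95% interval -0.21 to 0.24, limma adjusted p = 0.963), and its sign turned to -0.02 when each array was centred on its median. The interval spans fold changes from 0.865 to 1.18.

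PROX1 and GATA4, like CEBPB, had knockdown arrays on opposite sides of the control mean. PROX1 (probe 7909681) read 8.96 and 8.90 in controls, 8.76 in knockdown replicate 1 and 9.03 in knockdown replicate 2. Its log2 difference was -0.03 (SE 0.121, 95% interval -0.33 to 0.26, limma adjusted p = 0.935). GATA4 (probe 8144643) read 8.87 and 8.97 in controls, 9.05 in knockdown replicate 1 and 8.91 in knockdown replicate 2. Its log2 difference was 0.06 (SE 0.104, 95% interval -0.19 to 0.31, limma adjusted p = 0.855). The sign of PROX1 turned to 0.10, and that of GATA4 to -0.01, without knockdown replicate 1.

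**Figure D2:**
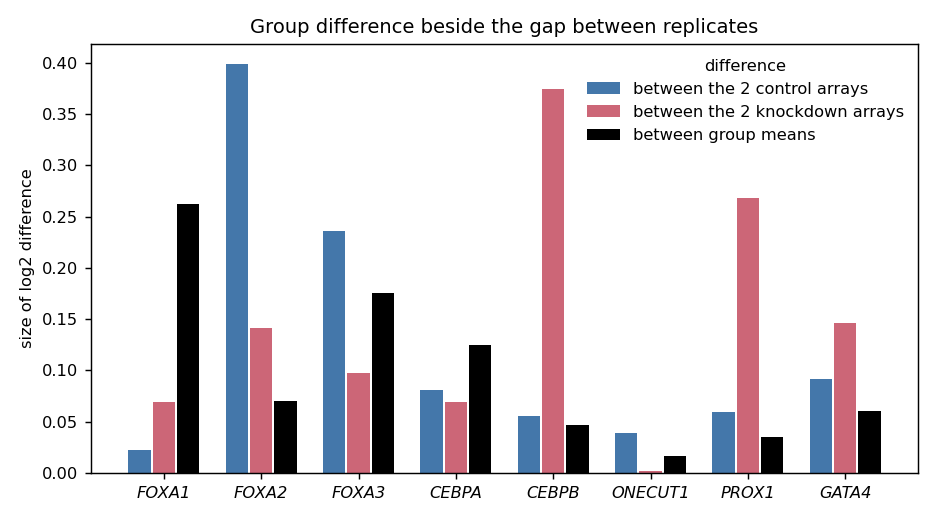
Size of the log2 difference between the 2 control arrays (blue), between the 2 knockdown arrays (red) and between the group means (black), for each of the 8 factors. For FOXA1 and CEBPA the group difference is the tallest bar, and for the other 6 a gap between replicates is at least as large.

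Over the 8 factors, 6 differences were negative and 2 positive, and 48% of all genes had a negative difference. The groups did not overlap for 3 of the 8, all with knockdown below control, where 45.5% of all genes showed no overlap and 23% lay below. The median log2 difference of the factors was -0.06, against 0.0082 for all genes, with -0.12 in the first knockdown array and -0.07 in the second. Their median absolute difference was 0.065, against 0.114 for all genes. The 8 intervals, each taken alone, lay between -0.49 and 0.31 on the log2 scale, which corresponds to 0.711 and 1.24 of the control level. A 2-fold change of any of the 8 transcripts thus lay outside its interval with all 4 arrays. Leaving out control replicate 2, the bounds widened to -0.68 and 0.51, and 0 of the 8 passed in limma in any set of 3 arrays.

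Other genes of the same families were measured for comparison, 11 in all, and none passed an adjusted p of 0.05 in limma while 3 reached an unadjusted p under 0.05, as did 14.3% of all genes. All 3 had higher means in knockdown cells (6.25% of all genes reached that p in this direction) and belong to the GATA family. GATA2, a factor of haematopoietic progenitors, read 7.40 and 7.28 in controls and 7.83 and 7.74 in knockdown cells, differing by 0.45 log2 units (SE 0.101, limma adjusted p = 0.159). GATA3, known from T cells and luminal epithelia, read 5.92 and 5.88 in controls and 6.48 and 6.24 in knockdown cells, a difference of 0.46 (SE 0.115, limma adjusted p = 0.185). GATA1 lay at 0.25 (limma adjusted p = 0.348). For these 3 genes both knockdown values lay above both controls, as for 22.5% of all genes, whereas the GATA4 groups overlapped. Whether the GATA genes differed from GATA4 in their response was not tested. GATA6, which acts with GATA4 in liver bud growth, lay at 0.06 (SE 0.1001) and GATA5 at 0.04 (SE 0.118).

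Among the C/EBP relatives, CEBPD, another cytokine-responsive member, read 9.35 and 9.45 in controls. In knockdown replicate 1 it read 9.76 and in knockdown replicate 2 9.45, so that the same array stood high as for CEBPB. Its log2 difference was 0.21 (SE 0.132, limma adjusted p = 0.536). DDIT3, a stress-induced C/EBP protein that dimerises with the others, lay at -0.24 (SE 0.111, limma adjusted p = 0.399), with its knockdown values of 5.80 and 5.91 below its control values of 6.19 and 5.999. CEBPG, a widely expressed partner, lay at 0.04 (SE 0.093) and CEBPE, a myeloid factor, at 0.16 (SE 0.120). ONECUT2, the paralog of ONECUT1 with overlapping roles in liver development, lay at 0.08 (SE 0.112). PROX2 read below the lower quartile of all probes (3.99 to 4.02) on every array, so no difference is given for it.

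**Figure D3:**
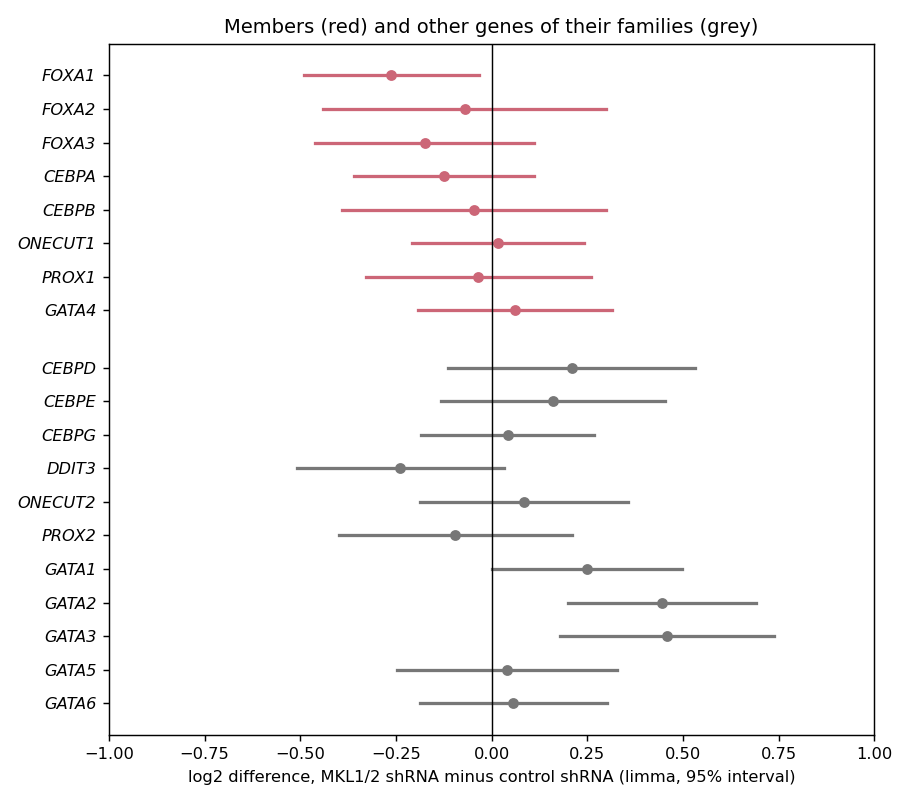
Log2 differences (points) with 95% limma intervals (lines) for the 8 factors in red and the 11 other measured genes of their families in grey; positive values are higher with MKL1/2 shRNA. The 8 factors lie between -0.26 and 0.06, and GATA2 and GATA3 are the genes farthest from 0, at 0.45 and 0.46.

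A wider list of liver transcription factors held 26 measured genes outside the 8, some of them in the families above. None passed an adjusted p of 0.05 in limma, 1 was higher at an unadjusted p under 0.05 (6.25% of all genes were) and 0 were lower (8.04% of all genes were). The median difference of the list was 0.05, and 20 differences were positive and 6 negative, where 52% of all genes were positive. HLF, a circadian bZIP factor of hepatocytes, was that 1 gene. It read 7.69 and 7.79 in controls and 8.56 and 8.17 in knockdown cells, a difference of 0.63 (SE 0.148, limma adjusted p = 0.169). NR0B2, the orphan receptor SHP that represses bile acid synthesis, read 7.26 and 7.42 in controls, 7.57 in knockdown replicate 1 and 8.73 in knockdown replicate 2. Its mean difference of 0.81 (SE 0.347, limma adjusted p = 0.364) thus came mostly from the second knockdown array. NR1I3, the xenobiotic receptor CAR, lay at 0.18 (SE 0.099, limma adjusted p = 0.472).

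Known inputs and brakes of the C/EBP proteins were measured at 23 genes, and none passed an adjusted p of 0.05 in limma. At an unadjusted p under 0.05, 5 were lower and 0 higher, against 8.04% and 6.25% of all genes, and the list's median was -0.05. TRIB1, a pseudokinase that directs CEBPA to degradation, read 9.01 and 8.91 in controls and 8.48 and 8.56 in knockdown cells, differing by -0.43 log2 units (SE 0.099, limma adjusted p = 0.161). CDK4, a cyclin-dependent kinase that binds CEBPA, lay at -0.44 (SE 0.103, limma adjusted p = 0.162). JAK1, a kinase of the interleukin 6 receptor, and NFKB1, an inflammatory transcription factor, lay at -0.34 each (SE 0.098 and 0.105). The receptor gene IL6R, named after its values were seen, lay at -0.41 (SE 0.139, limma adjusted p = 0.276). These 5 genes, named for their small p-values, had every knockdown value below every control value. Of all 23 in the list, 10 lay below and 6 above, against 23% and 22.5% of all genes. The CEBPA groups were separate in the same direction, at -0.12, and the CEBPB groups overlapped, at -0.05.

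Genes known as C/EBP targets or acute phase genes had 23 of 28 differences above 0, against 52% of all genes. Of the 28 measured, none passed an adjusted p of 0.05 in limma, 10 were higher and 1 lower at an unadjusted p under 0.05, where 6.25% and 8.04% of all genes were. The list's median difference was 0.17, at 0.34 in knockdown replicate 1 and 0.05 in knockdown replicate 2. For 15 of the 28 genes the groups overlapped. Knockdown values lay above control values for 11 and below for 2, against 22.5% and 23% of all genes. CPS1, the carbamoyl phosphate synthetase of the urea cycle, read 5.39 and 5.34 in controls and 6.22 and 6.14 in knockdown cells, a difference of 0.81 (SE 0.095). ARG1, the arginase of the same cycle, read 4.76 and 4.81 in controls and 5.55 and 5.57 in knockdown cells, a difference of 0.77 (SE 0.093). Both had a limma adjusted p of 0.0563, above the threshold of 0.05. HAMP, which encodes the iron hormone hepcidin, lay at 1.10 (SE 0.182, limma adjusted p = 0.102). OTC, a further urea cycle enzyme, read 3.11 and 3.38 in controls and 3.90 and 4.32 in knockdown cells, near the lower quartile of all probes. The 1 lower gene was LCN2, the acute phase protein lipocalin 2, at -0.61 (SE 0.221), named after its values were seen. The list's median was 0.21 without control replicate 1 and 0.20 without control replicate 2, so it depended more on the knockdown arrays.

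Targets of FOXA and the hepatocyte nuclear factors lay on both sides of 0, with 16 of 29 differences positive, against 52% of all genes. In limma none of the 29 had an adjusted p under 0.05, 1 was lower and 1 higher at an unadjusted p under 0.05, where 8.04% and 6.25% of all genes were. The median difference was 0.05, and it was -0.0055 without the dimmest 40% of genes. AFP, the fetal plasma protein alpha-fetoprotein, read 12.26 and 12.19 in controls and 11.96 and 11.86 in knockdown cells, differing by -0.31 log2 units (SE 0.098, limma adjusted p = 0.250). APOC3, an apolipoprotein of triglyceride-rich particles, lay at 0.81 (SE 0.372), with values of 9.68 and 8.43 in the knockdown arrays against 8.33 and 8.15 in controls. CYP3A4 and UGT2B7, drug-metabolising enzymes, lay below the lower quartile of all probes on every array. Albumin, the classic target of this network, read 12.25 and 12.18 in controls and 12.32 and 12.43 in knockdown cells, a difference of 0.16 (SE 0.098, limma adjusted p = 0.532).

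Genes linked to GATA4, ONECUT1 or PROX1 numbered 11 measured, and none passed an adjusted p of 0.05 in limma while 2 were higher and 1 lower at an unadjusted p under 0.05 (6.25% and 8.04% of all genes were). Their median difference was 0.08. SLC2A2, the hepatocyte glucose transporter GLUT2, read 4.61 in both controls, 5.73 in knockdown replicate 1 and 6.67 in knockdown replicate 2, a difference of 1.59 (SE 0.284, limma adjusted p = 0.118). The other higher gene was HAMP, given above. EPO, the erythropoietin gene, lay at -0.26 (SE 0.093, limma adjusted p = 0.298). Over the 4 arrays EPO was also the gene whose pattern was nearest to that of FOXA1, with a Euclidean distance of 0.0166 log2 units after subtraction of each gene's control mean. The next nearest were SNORA19, C5orf47, RPS6KC1 and ZNF317, at distances up to 0.0213, over 4 arrays of 1 cell line. Of these, SNORA19 read 2.59 to 2.91, below the lower quartile of all probes (3.99 to 4.02), and C5orf47 read 3.69 to 4.01, near or below it. CYP7A1, the rate-limiting enzyme of bile acid synthesis, lay below the lower quartile of all probes on every array.

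**Figure D4:**
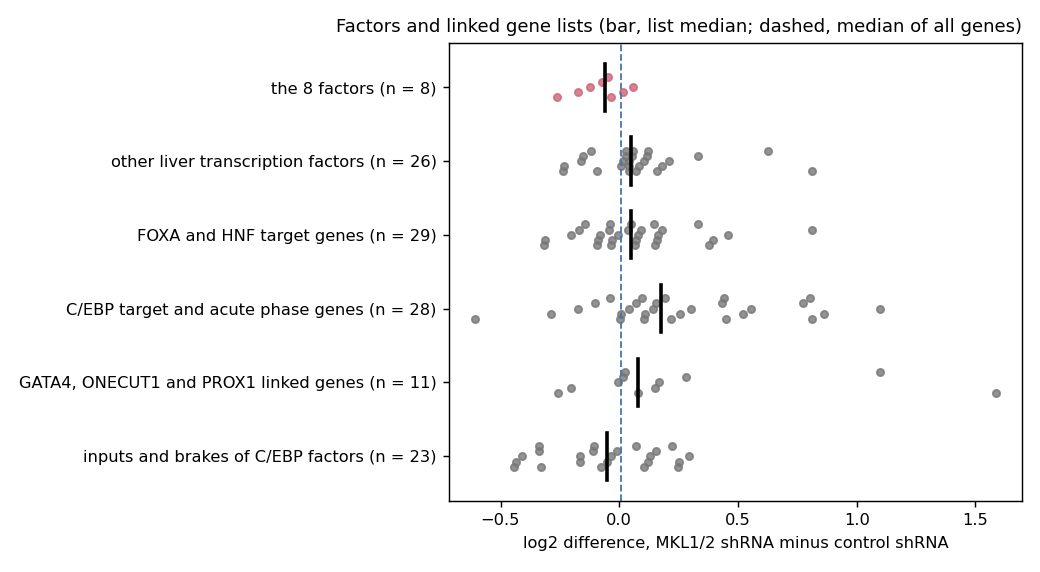
Log2 differences (MKL1/2 shRNA minus control shRNA) of single genes for the 8 factors in red and 5 linked gene lists in grey, with a black bar at each list's median and a dashed line at the median of all genes, 0.0082. The 8 factors span -0.26 to 0.06, while the C/EBP target list reaches from -0.61 to 1.10 around a median of 0.17.

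Among markers of other cell types, 0 of 39 measured genes were called in limma at an adjusted p of 0.05 and 5 reached an unadjusted p under 0.05, near the 14.3% of all genes. LYVE1, a hyaluronan receptor of lymphatic and sinusoidal endothelium, had the smallest p of them. It read 6.08 and 5.94 in controls and 5.15 and 4.94 in knockdown cells, a difference of -0.96 (SE 0.117, limma adjusted p = 0.0563). The other 9 endothelial markers had limma adjusted p-values of at least 0.376, and no endothelial marker lay above the upper quartile. Mean log2 values of the endothelial list, with the lower array of each group first, were 4.77 and 4.81 in controls and 4.66 and 4.87 in knockdown arrays. Of 9 biliary markers, 5 differences were positive and 4 negative, with a median of 0.04. CFTR, a chloride channel with the smallest p of that list (limma adjusted p = 0.292), read 3.56 and 3.75 in controls and 4.02 and 3.91 in knockdown arrays, below the lower quartile of all probes on every array. SPP1, the secreted phosphoprotein osteopontin and next by p, lay at -0.999 (SE 0.385), reading 6.42 and 7.73 in the knockdown arrays against 8.08 and 8.06 in controls (limma adjusted p = 0.322). The hepatocyte list, again with the lower array first, averaged 10.82 and 10.84 in controls and 10.78 and 10.82 in knockdown arrays. All samples were of 1 tumour line, so these lists do not count cells of other types. In RNA from whole cultures of that line, fewer cells expressing a transcript and less RNA per cell cannot be told apart.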

How the data were processed

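Total RNA of HuH7 cells was hybridised to 1-colour whole-transcript arrays, 1 per sample, with 2 control and 2 knockdown samples grouped by their titles. The authors' deposited table holds log2 values for 33297 probes. The base was inferred from their range (1.03 to 13.65), and near-equal quartiles show that the arrays had been normalized. The submitters' processing notes name Partek; the background correction and the normalization method are unstated in those notes, so no detection limit is known and precision is limited by the number of arrays. Probes with 1 symbol (19460) were named from the platform annotation, updated through Entrez identifiers to RefSeq (GRCh38.p14, 19429 found); 1754 list several genes and 12083 none. For the 769 genes with several probes, that with the highest mean was used, giving 18417 genes. limma 3.58.1 in R 4.3.3 (lmFit, eBayes, group only, two-sided, Benjamini-Hochberg over all genes, threshold 0.05; 2 residual and 4.12 prior degrees of freedom) was tested on simulated data. Replicate numbers were not taken as pairs: the labels give no shared day, and the replicate deviations of the groups correlated at -0.067 over genes. Members, lists and alternatives were chosen with earlier results of these data known. Named genes are the members, both shRNA targets, relatives of the 5 families, the 4 smallest p-values in each list (of the marker lists, only LYVE1, CFTR, SPP1, AFP and ALB are described) and the 5 genes nearest to the member that differed most. SRF, as a comparator, and IL6R, LCN2 and LUM were named outside this rule. Listed genes with no probe of their own in the annotation were not analysed here. Promoter windows are RefSeq's.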

Additional observations from a re-analysis of the deposited data

How the results depend on the processing

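Alternatives left out the dimmest 40% of genes, normalized by quantiles, centred each array on its median, averaged probes, changed the variance moderation (intensity trend or robust), set the threshold at 0.10, added the replicate number as a block, or left out each array in turn. Under the 8 settings with all arrays, 63 of 64 values of single factors kept their sign and stayed short of the threshold. As each factor has 1 probe, only quantile normalization and median centring could change its log2 difference or sign. The other settings left that difference as it was, so its kept sign there is no check. The exception was ONECUT1, at -0.016 after median centring. The median of the factors was -0.029 after quantile normalization and -0.091 after median centring. The number of genes called, 32, became 51 with robust moderation, 144 at a threshold of 0.10 and 93 with the replicate block. The share of calls that were lower was 53.1%, and 40.9% with the block. No factor was called with the block either, the smallest limma adjusted p of the 8 being 0.422. The C/EBP target list, with 0 calls, had 1 without the dimmest genes and 1 after quantile normalization (CPS1 each time), 2 with robust moderation and 2 at a threshold of 0.10 (CPS1 and ARG1), and 3 with the replicate block (CPS1, OTC and HAMP). The list linked to GATA4, ONECUT1 and PROX1 had 2 calls with the block, and a median of 0.014 without the dimmest genes, 0.064 after quantile normalization and 0.048 after median centring. The endothelial list had 1 call after quantile normalization, 1 after median centring, 1 with robust moderation, 1 at a threshold of 0.10 and 1 with the replicate block. The FOXA and HNF target median, 0.050 with the values as deposited, was -0.0055 without the dimmest genes and 0.018 after median centring. Median centring put the biliary median at 0.0076. Without the dimmest genes the fibroblast median was -0.074 and the blood cell median 0.044. The causes of these moves were not tested, beyond the smaller number of genes in the filtered set and the looser threshold.

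Leaving out 1 array, with the lone array assumed to vary like the other group, gave 0 to 781 genes called (0 without either control, 299 without knockdown replicate 1 and 781 without knockdown replicate 2). With 0 calls in limma there were 866 genes at an unadjusted p under 0.05 without control replicate 1 and 1219 without control replicate 2. The factors had 0 calls in each set. FOXA1 ranged from -0.30 to -0.23, FOXA3 from -0.29 to -0.06 and CEBPA from -0.17 to -0.08. Ranges that crossed 0 were FOXA2 (-0.27 to 0.13), CEBPB (-0.23 to 0.14), ONECUT1 (-0.0031 to 0.036), PROX1 (-0.17 to 0.099) and GATA4 (-0.013 to 0.13). The median of the factors ran from -0.12 to -0.012. Medians ran from 0.050 to 0.34 for C/EBP targets, -0.056 to 0.11 for FOXA and HNF targets, -0.10 to -0.0050 for inputs and brakes of C/EBP factors, 0.029 to 0.065 for other liver transcription factors, 0.099 to 0.14 for genes linked to GATA4, ONECUT1 and PROX1, -0.047 to 0.018 for biliary, -0.042 to 0.065 for fibroblast, -0.014 to 0.12 for endothelial, 0.048 to 0.13 for blood cell and -0.069 to 0.017 for hepatocyte markers. Calls ran from 0 to 12 among C/EBP targets, 0 to 3 among FOXA and HNF targets and among genes linked to GATA4, ONECUT1 and PROX1, and 0 to 1 among other liver transcription factors and hepatocyte, biliary, fibroblast and endothelial markers. With no scanner files used here, signal over background is unknown and limits statements on dim genes.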
